A study of Saccharomyces cerevisiae with 14 samples.

Results

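The genes of glycolysis, alcoholic fermentation, glycerol synthesis and gluconeogenesis of Saccharomyces cerevisiae were taken by name from the deposited expression table, and all 32 were found among its 5886 genes. They comprise 6 genes of upper glycolysis, 11 of lower glycolysis, 7 of fermentation, 4 of glycerol synthesis and 4 of anaplerosis and gluconeogenesis. The study looked for regulators of replicative lifespan and sequenced RNA of log-phase cultures grown in YPD (2% glucose, 2% peptone, 1% yeast extract). Its groups were the BY4741 wild type (WT, 2 libraries, where the series text gives 3 replicates per group) and 4 mutants with 3 libraries each. MSB3Δ, NIT3Δ and HSP26Δ are deletions of those genes, and TYS1 DAmP is a knockdown made by placing a resistance cassette behind the open reading frame of the essential tyrosyl-tRNA synthetase gene. All strains are haploid MATa cells that carry the auxotrophic deletions of BY4741. The titles call the libraries of a group biological replicates, with nothing further on how they were made. Values are FPKM, that is fragments scaled to the length of the transcript and to the number of mapped fragments of the library.

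Glycolysis turns glucose into pyruvate, and on abundant glucose budding yeast ferments most of that pyruvate to ethanol through pyruvate decarboxylase and alcohol dehydrogenase even when oxygen is present. A side branch makes glycerol, which balances redox cofactors and protects against osmotic stress, while gluconeogenesis runs the pathway backwards on carbon sources other than sugar and is repressed by glucose. Many steps have several isoenzymes, commonly a very abundant one used during growth on glucose and a scarcer copy that responds to stress or to the loss of glucose.

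The labels were checked against the targeted genes before the pathway was examined. MSB3 was at 0 to 0.02 FPKM in MSB3Δ, NIT3 at 0 to 0.28 FPKM in NIT3Δ and HSP26 at 0.08 to 0.15 FPKM in HSP26Δ, against at least 15.96, 270.1 and 77.5 FPKM in WT. TYS1 was at 66.2 to 82.5 FPKM in TYS1 DAmP and 512 to 563 FPKM in WT. MET17 was at 0 to 0.03 FPKM in all 14 libraries, while the MATa receptor gene STE2 was at 90.5 to 668 FPKM and the alpha-factor gene MFALPHA1 at no more than 2.13 FPKM. The other alpha-specific genes were at low levels, STE3 at 4.99 to 19.5 FPKM and MFALPHA2 at 4.97 to 10.7 FPKM. HIS3, which BY4741 carries as a partial deletion, was at 121.6 to 231 FPKM, and LEU2, URA3, MFA1 and MFA2 were not analysed here. Pearson correlations of log2 values with the sister libraries were 0.915 and 0.937 for NIT3Δ replicate 2. They were 0.957 and 0.961 for TYS1 DAmP replicate 1, and 0.982 and 0.960 for MSB3Δ replicate 1. By ribosomal share, a pair of libraries stood apart from the rest. Genes of cytosolic ribosomal proteins (RPL and RPS) made up 17.4% of the FPKM sum in NIT3Δ replicate 2 and 29.0% in MSB3Δ replicate 1, against 37.1% to 44.6% in the other mutant libraries and 45.7% and 47.0% in WT. The summed level of 10 stress and diauxic marker genes was 18167 and 6581 FPKM in these same libraries, 2210 to 5314 FPKM in the other mutant libraries and 1768 and 2016 FPKM in WT. Thus every mutant library had a lower ribosomal share and a higher stress sum than both WT libraries, and the part of either in the results that follow was not tested. The sum is led by SPI1 (1096 to 6677 FPKM), and single markers could go the other way. In HSP26Δ replicate 3, HSP12 (77.9 FPKM), SPG4 (7.84 FPKM) and GRE1 (5.70 FPKM) were below both WT libraries. CTT1, TSL1, GSY1, TFS1 and SOL4 were above both there, and SPI1 and DDR2 lay between them.

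The text of a few coding sequences shows why some isoenzyme levels may be less certain than others. The 3 glyceraldehyde-3-phosphate dehydrogenase genes TDH3, TDH2 and TDH1 have coding sequences of 999 bases that differ at 125 positions, and the most divergent 60-base window (coding positions 64 to 123) differs at 21. It is printed from the R64 reference, with capitals at the positions where the 3 genes are not all alike, for TDH3 (chrVII:883688-883747, minus strand), TDH2 (chrX:454559-454618, minus strand) and TDH1 (chrX:338334-338393, plus strand).
TDH3: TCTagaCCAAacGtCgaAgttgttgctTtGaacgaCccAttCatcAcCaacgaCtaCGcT
TDH2: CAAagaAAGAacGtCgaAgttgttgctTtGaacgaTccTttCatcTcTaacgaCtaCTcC
TDH1: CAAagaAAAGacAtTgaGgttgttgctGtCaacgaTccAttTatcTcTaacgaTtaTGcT
Even here short runs of bases are alike in all 3 genes, and elsewhere TDH2 and TDH3 run identical for up to 173 bases. Their coding sequences were 95.8% identical, those of TDH1 and TDH3 88.9% and those of ENO1 and ENO2 94.8%. ADH2 and ADH1 (88.8%) shared a run of 189 bases, and PYC1 and PYC2 (85.1%) a run of 200 bases. The scarce PDC5 and the abundant PDC1 (87.2%) shared a run of 65 bases. Levels within these pairs can depend on how fragments that fit both copies were divided. The share of such fragments was not measured. By contrast HXK1 and HXK2 were 77.7% identical, GPD2 and GPD1 65.7%, PYK2 and CDC19 67.1%, and GLK1 and HXK2 51.7%.

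By the thresholds used in the study (fold change over 1.5 or under 0.7, unadjusted p under 0.05), 7 of the 32 members were called higher in at least 1 mutant, as were 10% of all genes tested. Each of the 7 was called in 2 to 4 of the mutants, and 0 members were called lower in any mutant, against 3.96% of all genes. They are HXK1, GLK1, TDH1, PYK2, GPD1, GPP2 and PYC1, that is at least 1 gene in every role except fermentation. What the regions upstream of their coding sequences hold is shown here because these members were called together. AGGGG, or CCCCT on the other strand, is the core of the stress response element read by the transcription factors Msn2 and Msn4. It occurred at least once in the 500 bases before the start codon of all 7 and of 11 of the other 25 members, and in 34.1% of 6000 upstream regions of nuclear protein-coding genes. It occurred 2 or more times in HXK1, GLK1, TDH1 and GPD1, in 3 of the other 25 members (TDH3, GPD2 and PYC2) and in 8.13% of all upstream regions. The 60-base stretches with the most matches are printed 5′ to 3′ on the strand of the gene, matches in capitals, from HXK1 (chrVI:255490-255549, minus strand), GLK1 (chrIII:50636-50695, plus), TDH1 (chrX:337796-337855, plus), PYK2 (chrXV:986609-986668, minus), GPD1 (chrIV:411489-411548, plus) and GPP2 (chrV:280925-280984, minus), all in R64.
HXK1: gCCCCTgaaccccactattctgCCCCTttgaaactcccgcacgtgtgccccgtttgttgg
GLK1: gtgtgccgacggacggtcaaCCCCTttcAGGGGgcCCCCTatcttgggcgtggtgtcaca
TDH1: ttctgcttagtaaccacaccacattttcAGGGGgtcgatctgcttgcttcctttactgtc
PYK2: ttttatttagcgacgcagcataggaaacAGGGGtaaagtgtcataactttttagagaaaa
GPD1: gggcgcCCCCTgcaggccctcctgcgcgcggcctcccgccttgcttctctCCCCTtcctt
GPP2: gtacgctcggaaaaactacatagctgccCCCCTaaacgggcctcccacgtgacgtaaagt
GLK1 holds 3 matches within 20 bases, while the single match of PYC1 lies 17 bases before its start codon and is not printed. CTTCC or GGAAG, the core bound by the glycolytic activator Gcr1, occurred in 6 of the 7 and 18 of the other 25 members against 66.1% of all regions. TATAAA or TTTATA occurred in 4 of 7 and 19 of 25 against 60.5%. GCGGGG or CCCCGC, a form of the core bound by the glucose repressor Mig1, was found in GLK1 and in no other member, against 5.77% of all regions. Other forms of that core were not searched, so its absence from the other members cannot be read from this. Matches of different motifs can share letters, and a match is a description of the letters, not a binding site.

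The levels of the members spanned 4 orders of magnitude. TDH3 was the most abundant, at 16809 FPKM in NIT3Δ replicate 2, 32327 FPKM in TYS1 DAmP replicate 3 and 28973 and 30112 FPKM in WT, and it was second only to the cell wall gene CCW12 in the whole table. GPM1 (phosphoglycerate mutase, 22298 and 22759 FPKM in WT) and FBA1 (fructose-bisphosphate aldolase, 20372 and 21145 FPKM in WT) also ranked among the 10 genes of highest mean. At the other end stood PDC6, FBP1, PCK1 and PDC5, whose means over the 14 libraries were between 3.38 and 10.5 FPKM. An estimate from the steps of low FPKM values put each library at 22500000 to 25200000 fragments, so that PDC6 rests on about 47 to 506 fragments per library and TDH3 on at least 326320. The 32 members made up 8.89% ± 0.49 of the FPKM sum in the 12 mutant libraries (SD, n = 12) and 8.40% ± 0.44 in WT (SD, n = 2). The difference of 0.488 percentage points was within the spread of libraries (two-sided exact permutation test over 91 arrangements, p = 0.19). With the ribosomal protein genes left out of the sum, the difference turned to -1.08 percentage points (exact permutation p = 0.42).

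**Figure D1:**
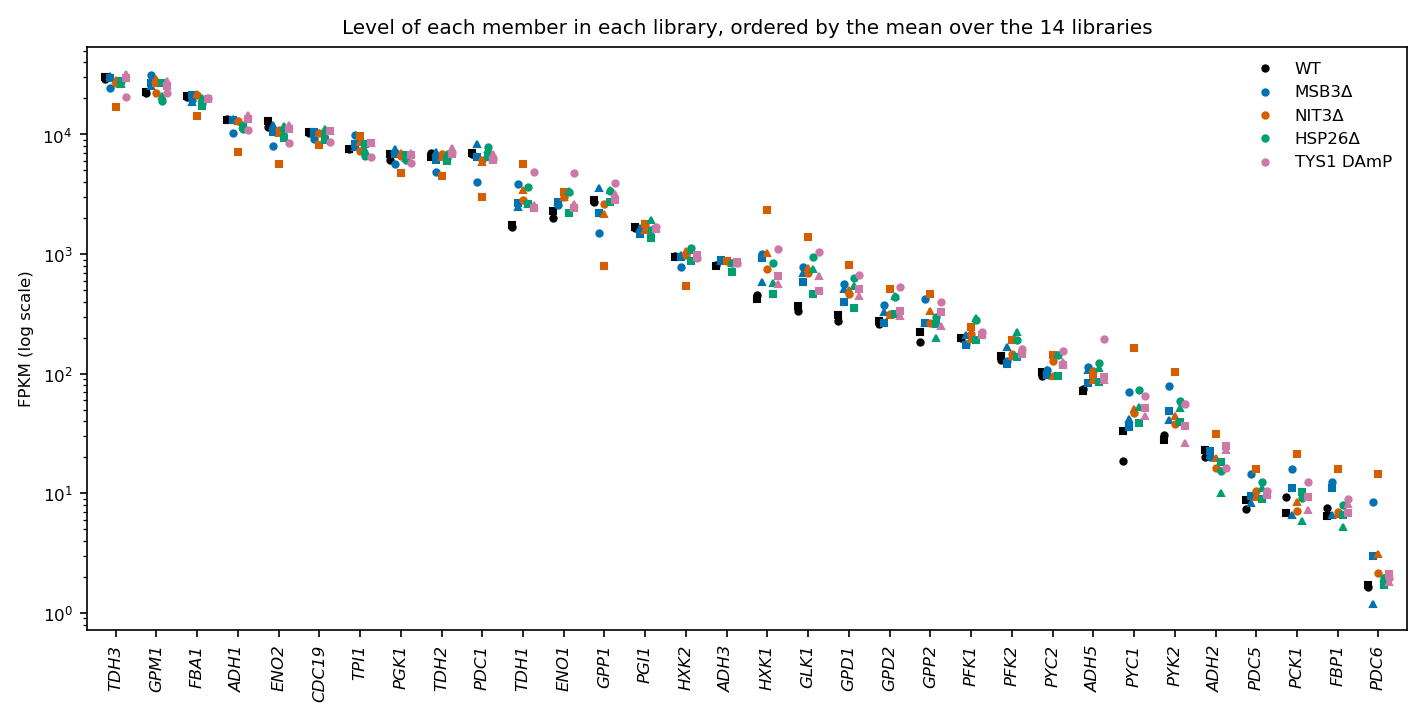
FPKM of the 32 members on a log axis in each of the 14 libraries, ordered by their mean, with color for the strain and symbol for the replicate. TDH3, GPM1 and FBA1 are the highest members in nearly all libraries, with FBA1 at no less than 14263 FPKM, and PDC6 reaches 14.4 FPKM only in NIT3Δ replicate 2.

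Sugar phosphorylation, the entry step, is shared by 3 isoenzymes, of which GLK1 and HXK1 were called higher and HXK2 was not. HXK2, the main hexokinase of cells growing on glucose, was at 958 and 948 FPKM in WT and at 538 to 1115 FPKM in the mutants, on both sides of WT. GLK1, the glucokinase, was at 337 and 368 FPKM in WT. It was at 785, 580.0 and 697 FPKM in MSB3Δ replicates 1 to 3, at 692, 1383 and 761 FPKM in NIT3Δ, at 941, 468 and 752 FPKM in HSP26Δ and at 1048, 490.2 and 662 FPKM in TYS1 DAmP. All 12 mutant libraries were thus above both WT libraries, with NIT3Δ replicate 2 farthest away. GLK1 was called in all 4 mutants, with log2 fold changes of 0.95 (SE 0.21), 1.35 (SE 0.36), 0.97 (SE 0.29) and 0.98 (SE 0.31) in the order MSB3Δ, NIT3Δ, HSP26Δ, TYS1 DAmP. The adjusted p-values from limma were 0.460, 0.563, 0.258 and 0.614, so that none passed correction over all genes.

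HXK1, the hexokinase that is repressed by glucose, was at 452 and 424 FPKM in WT. It was at 1004, 923 and 579.5 FPKM in MSB3Δ, 748, 2352 and 1020.4 FPKM in NIT3Δ, 838, 459.97 and 568 FPKM in HSP26Δ, and 1102, 653 and 566 FPKM in TYS1 DAmP. Every mutant library was above WT, though HSP26Δ replicate 2 only by a few FPKM. Its log2 fold change was 0.89 (SE 0.28) in MSB3Δ, 1.47 (SE 0.50) in NIT3Δ and 0.76 (SE 0.29) in TYS1 DAmP, all called. Without TYS1 DAmP replicate 1 the value in that strain was 0.47, under the fold threshold, and was not called. Its limma adjusted p in that fit was 0.0471. In HSP26Δ the log2 fold change was 0.46 (SE 0.26, limma adjusted p = 0.386) and was not called. Phosphoglucose isomerase PGI1 and the phosphofructokinase subunits PFK1 and PFK2, which carry the next steps, were called in no mutant. Their log2 fold changes lay between -0.09 and 0.41, and PFK1 was at 174.8 to 291 FPKM over all 14 libraries.

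In lower glycolysis the abundant enzymes were called in no mutant. These were FBA1, TPI1 (triose phosphate isomerase), TDH2, TDH3, PGK1 (phosphoglycerate kinase), GPM1, ENO2 (enolase) and CDC19 (the main pyruvate kinase). The lowest of their log2 fold changes was -0.50 (SE 0.49) for ENO2 in NIT3Δ and the highest 0.31 (SE 0.21) for GPM1 in MSB3Δ. In NIT3Δ replicate 2 several of them were at their lowest of all libraries, with ENO2 at 5652, TDH3 at 16809, PGK1 at 4759 and CDC19 at 8144 FPKM. That library also had the lowest ribosomal share, and without it the log2 fold change of TDH3 in NIT3Δ was -0.09.

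TDH1, the glyceraldehyde-3-phosphate dehydrogenase known for its expression when growth stops, was the member of its family that was called. It was at 1680 and 1767 FPKM in WT, 3838, 2688 and 2483 FPKM in MSB3Δ, 2810 and 3425 FPKM in NIT3Δ replicates 1 and 3 and 5687 FPKM in NIT3Δ replicate 2. HSP26Δ had 3671, 2615 and 2626 FPKM and TYS1 DAmP 4843, 2418 and 2556 FPKM. All 12 mutant libraries exceeded both WT libraries. The log2 fold changes were 0.77 (SE 0.25), 1.14 (SE 0.41), 0.77 (SE 0.21) and 0.85 (SE 0.31) in MSB3Δ, NIT3Δ, HSP26Δ and TYS1 DAmP, called in each, with limma adjusted p between 0.224 and 0.652. Without TYS1 DAmP replicate 1 the value in that strain was 0.53, under the fold threshold, and no longer called. Its limma adjusted p in that fit was 0.0234. Under median-ratio scaling the NIT3Δ value was 0.84 and not called.

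PYK2, a pyruvate kinase that does not need activation by fructose-1,6-bisphosphate, was far scarcer than CDC19. It was at 30.8 and 27.9 FPKM in WT and at 79.3, 48.7 and 40.8 FPKM in MSB3Δ, and at 59.1, 39.4 and 52.1 FPKM in HSP26Δ. In these strains it was called, with log2 fold changes of 0.86 (SE 0.29) and 0.74 (SE 0.19), the latter with a limma adjusted p of 0.210, the smallest of any member. In NIT3Δ it was at 37.98, 104.2 and 44.5 FPKM (log2 fold change 0.91, SE 0.44, limma adjusted p = 0.563) and in TYS1 DAmP at 56.1, 36.6 and 26.2 FPKM, overlapping WT. ENO1, the scarcer enolase, was above both WT libraries (1991 and 2281 FPKM) in 11 of 12 mutant libraries. Its log2 fold changes of 0.32 to 0.55 were not called, and TYS1 DAmP replicate 1 was highest, at 4807 FPKM.

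**Figure D2:**
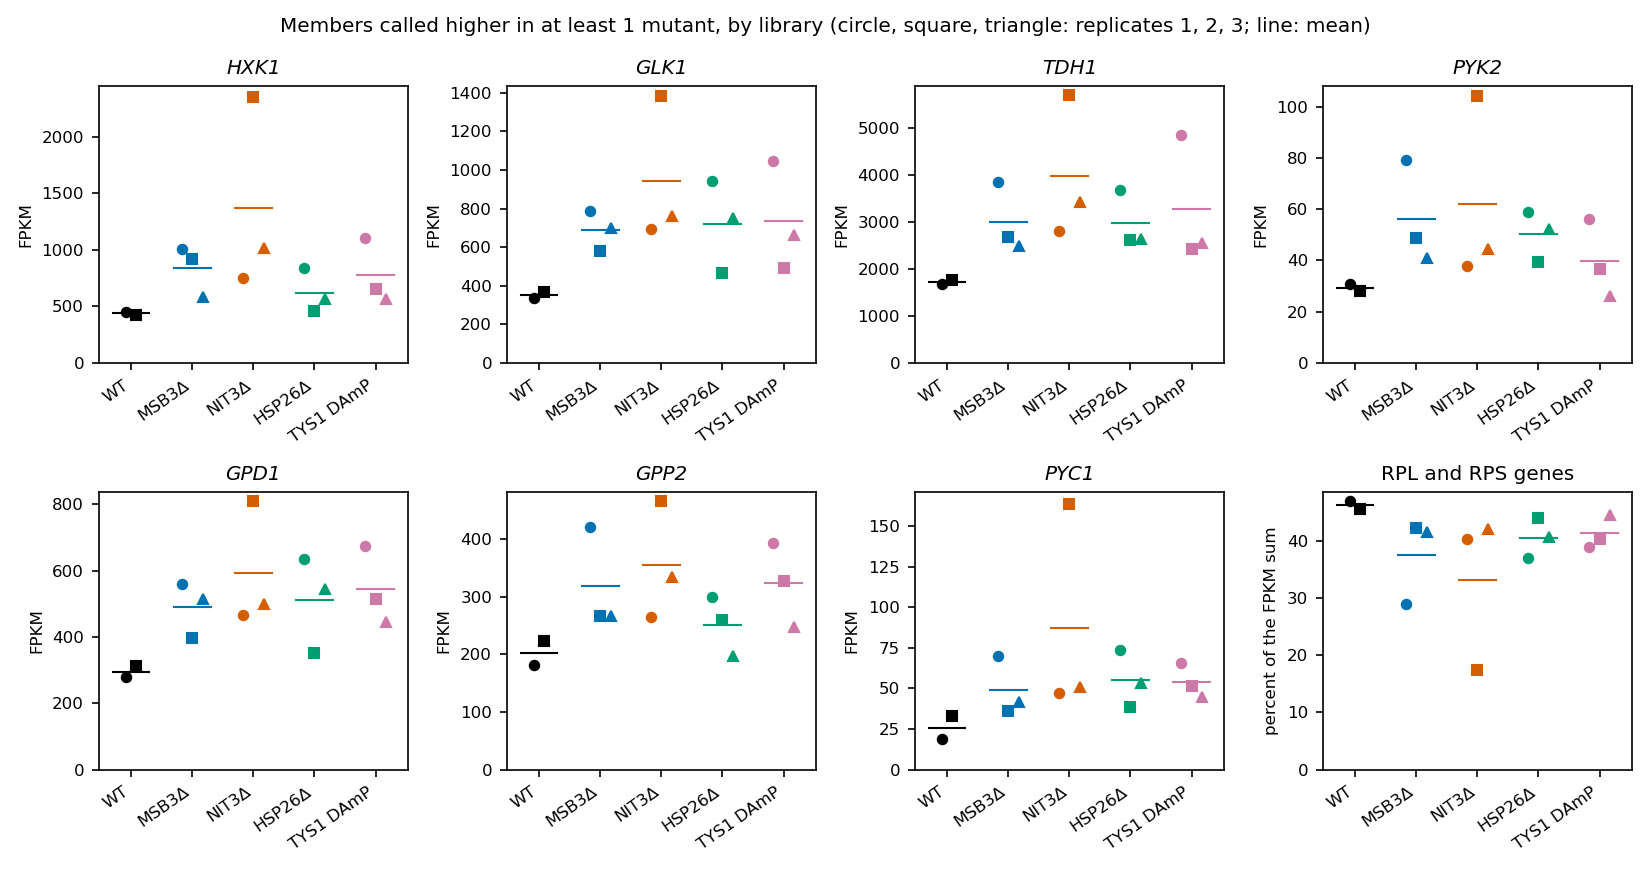
FPKM of the 7 members called higher in at least 1 mutant, and the RPL and RPS share of the FPKM sum in percent, by strain and library (lines are group means, axes start at 0). NIT3Δ replicate 2 is the highest library for all 7 genes and has the lowest ribosomal share, 17.4%.

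The fermentation genes had no call in any mutant. PDC1, the main pyruvate decarboxylase, was at 6813 and 6991 FPKM in WT and between 3001 FPKM (NIT3Δ replicate 2) and 8285 FPKM (MSB3Δ replicate 3) in the mutants. ADH1, the main fermentative alcohol dehydrogenase, was at 13398 and 13238 FPKM in WT and between 7192 and 14505 FPKM in the mutants. Its 3 HSP26Δ libraries were all below WT, at 11103, 11474 and 11959 FPKM, with a log2 fold change of -0.21 (SE 0.16, limma adjusted p = 0.510). PDC6, a minor decarboxylase, was at 1.66 and 1.70 FPKM in WT, but at 8.46 FPKM in MSB3Δ replicate 1 and 14.4 FPKM in NIT3Δ replicate 2, the same libraries with a low ribosomal share. In the remaining mutant libraries it was at 1.20 to 3.14 FPKM. Accordingly its log2 fold change of 1.13 in NIT3Δ had an SE of 0.71, and it was 0.43 without replicate 2.

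ADH5, a minor cytosolic alcohol dehydrogenase, was at 74.1 and 71.5 FPKM in WT and at 84.2 to 195.0 FPKM in the mutants, all 12 above WT. Its log2 fold changes of 0.40 to 0.68 did not meet both thresholds in any strain. ADH2, the glucose-repressed enzyme that uses ethanol, was at 20.2 and 22.9 FPKM in WT and lowest in HSP26Δ, at 15.3, 18.4 and 10.01 FPKM (log2 fold change -0.57, SE 0.24, limma adjusted p = 0.320). Under median-ratio scaling the value was -0.66 and was called lower. ADH3, the mitochondrial form, varied least of all members, from 715 to 896 FPKM. PDC5, which replaces PDC1 when that gene is lost, was at 7.34 and 8.85 FPKM in WT and 8.33 to 15.9 FPKM in the mutants, with no call.

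Glycerol synthesis uses a dehydrogenase (GPD1 or GPD2) and a phosphatase (GPP1 or GPP2). GPD1, the osmotic stress form of the dehydrogenase, was at 278 and 311 FPKM in WT. It was at 560.3, 396 and 513 FPKM in MSB3Δ, 467, 809 and 500.1 FPKM in NIT3Δ, 636, 352 and 545 FPKM in HSP26Δ and 674, 514 and 443.5 FPKM in TYS1 DAmP. No mutant library overlapped WT, and GPD1 was called in all 4 strains, with log2 fold changes of 0.72 (SE 0.22), 0.96 (SE 0.31), 0.75 (SE 0.26) and 0.86 (SE 0.21). The limma adjusted p-values were 0.652, 0.563, 0.280 and 0.457. In HSP26Δ the value was 0.57 without replicate 1 and 0.68 without replicate 3, not called in either fit. Without HSP26Δ replicate 2 it was 1.00 and called. GPD2, the form linked to growth without oxygen, was at 260.0 and 276 FPKM in WT and 265 to 533 FPKM in the mutants. Its log2 fold changes of 0.25 to 0.55 were not called.

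GPP2, the phosphatase induced by osmotic stress, was at 182.5 and 224 FPKM in WT. It was at 265, 467 and 335 FPKM in NIT3Δ and 394, 327 and 248 FPKM in TYS1 DAmP, where it was called (log2 fold changes 0.77, SE 0.30, and 0.65, SE 0.23). Both calls were lost under median-ratio scaling (0.48 and 0.57) and each passed in 1 of 5 fits with a library left out. It was at 422, 267 and 267 FPKM in MSB3Δ and 299, 259 and 197 FPKM in HSP26Δ, not called. GPP1, the abundant phosphatase, was at 2743 and 2851 FPKM in WT. It was below WT in the 3 NIT3Δ libraries, at 2622, 796 and 2151 FPKM, and above WT in the 3 TYS1 DAmP libraries, at 3933, 2856 and 3180 FPKM. The difference between these strains was -0.997 on the log2 scale (SE 0.41, NIT3Δ minus TYS1 DAmP, limma adjusted p = 0.546). Among 192 such comparisons between mutants over the 32 members, 5 had an unadjusted p under 0.05 and 0 an adjusted p under 0.05 (limma, smallest adjusted p 0.437). The shares of all genes past either threshold in these comparisons are not given here.

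Of the anaplerotic and gluconeogenic genes, only PYC1 was called. PYC1 and PYC2 encode pyruvate carboxylase, which makes oxaloacetate from pyruvate. PYC1 was at 18.7 and 33.1 FPKM in WT, 69.9, 35.8 and 41.5 FPKM in MSB3Δ, 46.9, 163 and 50.9 FPKM in NIT3Δ, 73.7, 38.6 and 53.2 FPKM in HSP26Δ and 65.6, 51.7 and 44.6 FPKM in TYS1 DAmP. All 12 were above WT, although the WT libraries themselves differed widely. The log2 fold changes were 0.89 (SE 0.35), 1.52 (SE 0.58), 1.07 (SE 0.32) and 1.07 (SE 0.28), called in each strain. Without WT replicate 1, the lower of the WT libraries, they were 0.50 in MSB3Δ, 1.12 in NIT3Δ and 0.67 in both HSP26Δ and TYS1 DAmP, called in no strain, and without NIT3Δ replicate 2 the NIT3Δ value was 0.94. PYC2 was at 95.5 and 103 FPKM in WT and 95.5 to 155 FPKM in the mutants, not called. FBP1 (fructose-1,6-bisphosphatase) and PCK1 (phosphoenolpyruvate carboxykinase), the glucose-repressed enzymes of gluconeogenesis, were at 6.52 to 7.52 and 6.80 to 9.30 FPKM in WT. They were highest in NIT3Δ replicate 2, at 15.9 and 21.1 FPKM, and MSB3Δ replicate 1, at 12.4 and 15.9 FPKM, and were called in no strain.

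Counted by strain, 6 of the 32 members (18.8%) were called higher in MSB3Δ, where 3.93% of the 5727 genes tested were called higher and 0.559% lower. In NIT3Δ 6 members were called higher, against 4.31% of all genes higher and 0.506% lower. In HSP26Δ 5 members (15.6%) were called higher, against 5.67% higher and 2.41% lower of all genes. In TYS1 DAmP 6 members were called higher, against 3.34% higher and 1.64% lower. GLK1, TDH1, GPD1 and PYC1 were called higher in all 4 strains, as were 0.768% of all genes, and 0 members were lower in all 4 (0.0524% of all genes), but the comparisons share the WT libraries and are not independent. Likewise 6 members (HXK1, GLK1, TDH1, ADH5, GPD1 and PYC1) were above both WT libraries in all 12 mutant libraries, against 7.86% of all genes, and 0 members were below both in all 12, against 2.78%. Within single strains, all 3 MSB3Δ libraries were above both WT libraries for 12 members (26.1% of all genes) and below both for 0 members (8.08%). For NIT3Δ these numbers were 14 members above (38.6%) and 5 below (9.57%). For HSP26Δ they were 9 above (27.6%) and 4 below (13.2%), and for TYS1 DAmP 16 above (20.4%) and 1 below (12.4%).

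The median member did not follow the called ones. The median log2 fold change of the 32 members was 0.17, 0.21, 0.10 and 0.16 in MSB3Δ, NIT3Δ, HSP26Δ and TYS1 DAmP, beside 0.18, 0.28, 0.08 and 0.07 over all genes tested. Most FPKM values were thus slightly higher in MSB3Δ and NIT3Δ than in WT, where the ribosomal share was larger. After median-ratio scaling, which sets that shift to 0, 18 of the 23 calls passed again (4 of 6 for MSB3Δ, 4 of 6 for NIT3Δ, 5 of 5 for HSP26Δ, 5 of 6 for TYS1 DAmP). The 5 that did not were TDH1 and GPP2 in NIT3Δ, GPD1 and PYC1 in MSB3Δ and GPP2 in TYS1 DAmP.

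**Figure D3:**
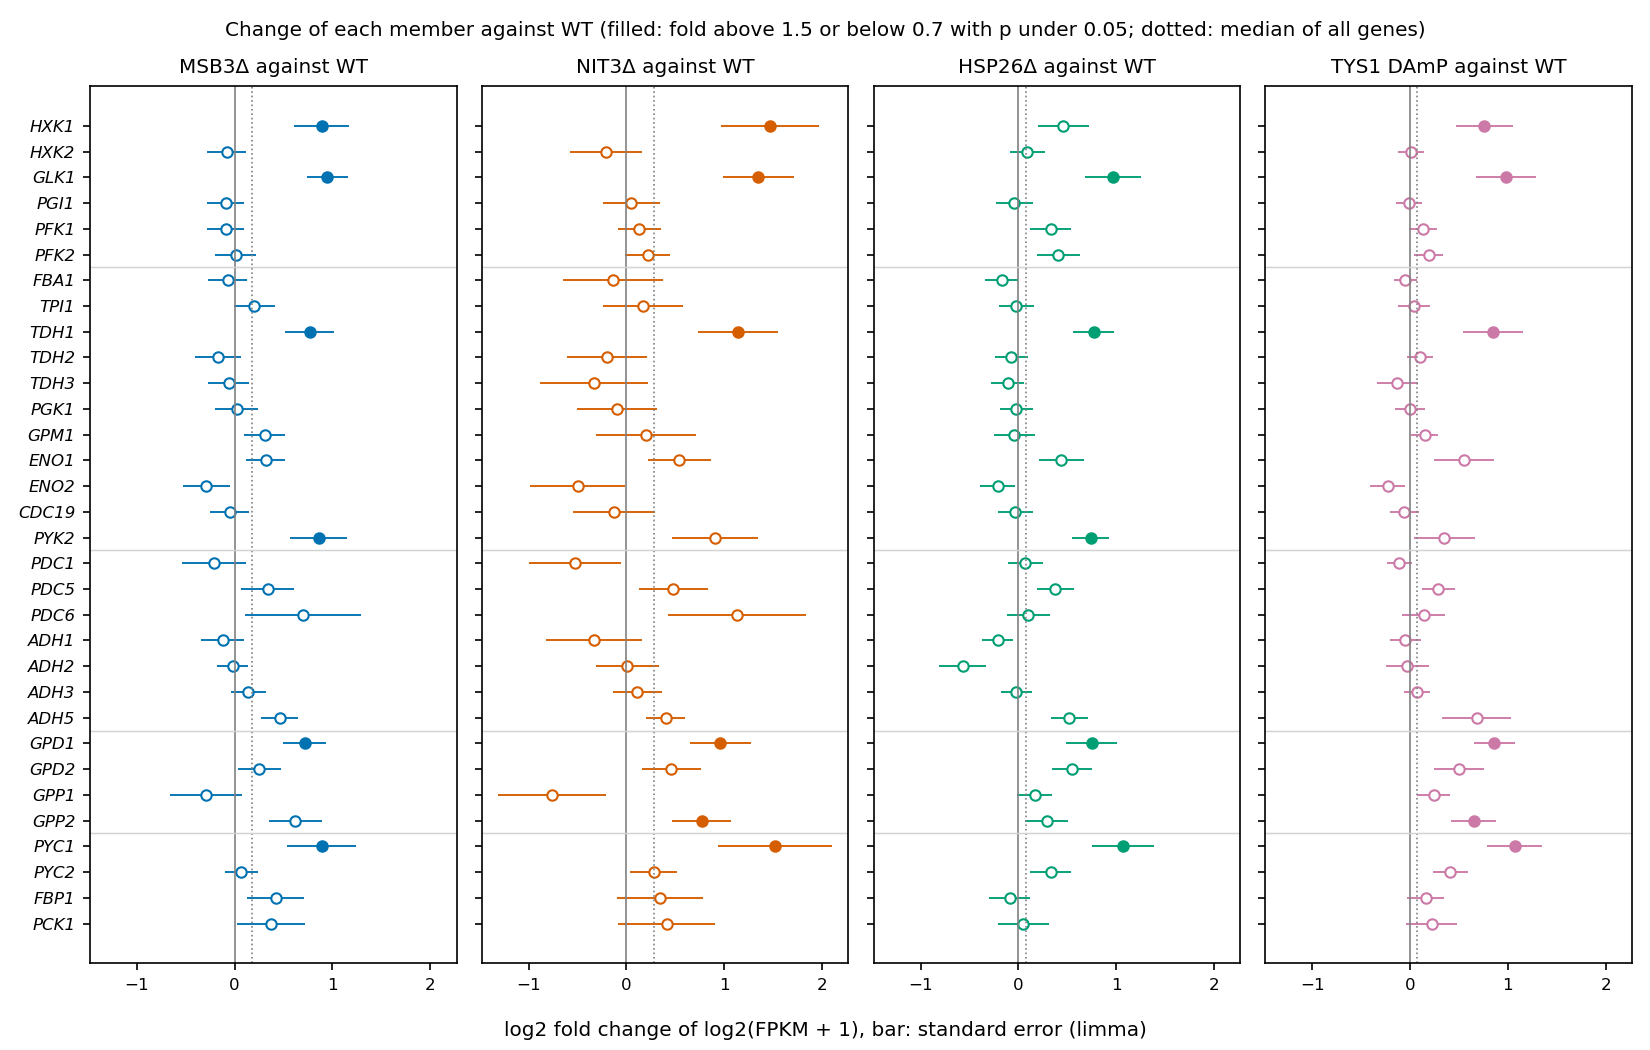
Log2 fold change of each member against WT with its standard error from limma, 1 panel per mutant, members in order of role (filled points passed both thresholds, dotted lines give the median of all genes). HXK1, GLK1, TDH1, GPD1 and PYC1 lie to the right in each panel, while TDH3, CDC19, PDC1 and ADH1 lie within 0.53 of 0.

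No member passed an adjusted p of 0.05 in any of the 4 comparisons (limma, Benjamini-Hochberg over 5727 genes), while 26 of the 128 tests of members against WT had an unadjusted p under 0.05. The share of all genes past that unadjusted threshold alone is not given here, so the 26 tests have no background beside them. In the whole table the adjusted threshold was passed by 0.0175% of genes in MSB3Δ and in NIT3Δ alike, 0.0349% for HSP26Δ and 0.0873% for TYS1 DAmP. The F test for any difference among the 5 groups gave an adjusted p under 0.05 for 0 members and 0.157% of all genes, and an unadjusted p under 0.05 for 1 member, GLK1, and 5.06% of all genes (limma, adjusted p of GLK1 0.775). The counts leaned on single libraries. Of the 23 calls, 3 passed in every fit with 1 library left out (GLK1 in MSB3Δ, PYK2 in HSP26Δ and GPD1 in TYS1 DAmP). Without WT replicate 1, which leaves 1 WT library assumed to vary like the mutants, the calls numbered 2, 0, 1 and 1 in MSB3Δ, NIT3Δ, HSP26Δ and TYS1 DAmP, and without WT replicate 2 MSB3Δ had 2, NIT3Δ 2 and TYS1 DAmP 3. Without HSP26Δ replicate 2 there were 10 calls higher in HSP26Δ, without MSB3Δ replicate 3 there were 10 in MSB3Δ, and without TYS1 DAmP replicate 1 there were 3 in TYS1 DAmP. In these fits 5, 1 and 4 members had a limma adjusted p under 0.05, and the shares of all genes passing are not given here. Without TYS1 DAmP replicate 1 those members were GLK1 (adjusted p = 0.0495), HXK1, TDH1 and GPD1 (adjusted p = 0.00893).

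Leaving out the libraries of low ribosomal share gave smaller changes but a narrower spread. Without MSB3Δ replicate 1, 4 members were called in MSB3Δ (HXK1 0.74, GLK1 0.85, PYK2 0.59 and GPD1 0.62 on the log2 scale), with limma adjusted p of 0.488, 0.236, 0.345 and 0.411, so that none passed correction. Without NIT3Δ replicate 2, 5 members were called in NIT3Δ. These were GLK1 (1.04, limma adjusted p = 0.00376), HXK1 (1.00, adjusted p = 0.00964), TDH1 (0.85, adjusted p = 0.00964), GPD1 (0.72, adjusted p = 0.0188) and PYC1 (0.94, adjusted p = 0.125). The shares of all genes called or passing correction in these fits are not given here. Whether the members stand out from other genes there cannot be read from these counts.

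Ratios of isoenzymes within a library do not depend on scaling between libraries, and 15 of them were compared between the 12 mutant and the 2 WT libraries. GLK1 amounted to 37.1% of HXK2 in WT and to 77.4%, 133%, 69.3% and 77.0% in MSB3Δ, NIT3Δ, HSP26Δ and TYS1 DAmP. HXK1 amounted to 46.0% of HXK2 in WT and to 95.0%, 203%, 60.3% and 81.1% in the mutants, the value of NIT3Δ being carried by replicate 2, where the log2 ratio was 2.13 against -0.40 and -0.05 in the other NIT3Δ libraries. Without that library NIT3Δ had 71.0% for GLK1 and 86.1% for HXK1. TDH1 was 5.83% of TDH3 in WT and 10.8% to 18.7% in the mutants, the highest value being that of NIT3Δ, which was 11.2% without replicate 2. ENO1 was 17.4% of ENO2 in WT and 26.9% to 38.3% in the mutants. PYC1 was 25.8% of PYC2 in WT and 40.5% to 67.7% in the mutants, again highest in NIT3Δ, which was 44.9% without replicate 2.

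For these pairs, and for ADH5 over ADH1, the ratio was above both WT libraries in all 12 mutant libraries. The mean log2 ratio differed by 1.11 for GLK1/HXK2 (two-sided exact permutation p = 0.044), 0.94 for HXK1/HXK2 (exact p = 0.14), 1.04 for TDH1/TDH3 (exact p = 0.055), 0.77 for ENO1/ENO2 (exact p = 0.033), 0.86 for PYC1/PYC2 (exact p = 0.044) and 0.69 for ADH5/ADH1 (exact p = 0.055). PYC1/PYC2 differed by 0.53 without WT replicate 1 and by 1.20 without WT replicate 2. GPD2/GPD1 differed in the other direction, by -0.38 (exact p = 0.022), with 11 of 12 mutant libraries below both WT libraries. None of the 15 pairs had an adjusted p under 0.05, the smallest being 0.14, while 4 had an unadjusted exact p under 0.05. With only 91 arrangements the exact p has a floor, which makes correction over 15 pairs hard to pass. No pair was at that floor, the smallest exact p being the 0.022 of GPD2/GPD1. TDH2/TDH3 differed by 0.07 (exact p = 0.62), ADH2/ADH1 by 0.03 (exact p = 0.92) and PFK1/PFK2 by -0.09 (exact p = 0.11). For the remaining pairs, PYK2/CDC19, PDC5/PDC1, PDC6/PDC1, ADH3/ADH1 and GPP2/GPP1, the differences were between 0.25 and 0.78, with exact p from 0.12 to 0.41. A setting without MSB3Δ replicate 1 and NIT3Δ replicate 2 was chosen after seeing the data. In it GLK1/HXK2 differed by 0.91 (exact p = 0.015), HXK1/HXK2 by 0.66 (exact p = 0.045), TDH1/TDH3 by 0.85 (exact p = 0.061) and ENO1/ENO2 by 0.66 (exact p = 0.091). These p-values are unadjusted and rest on fewer arrangements. In that setting 0 pairs had an adjusted p under 0.05, and the values of the other pairs are not given here.

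**Figure D4:**
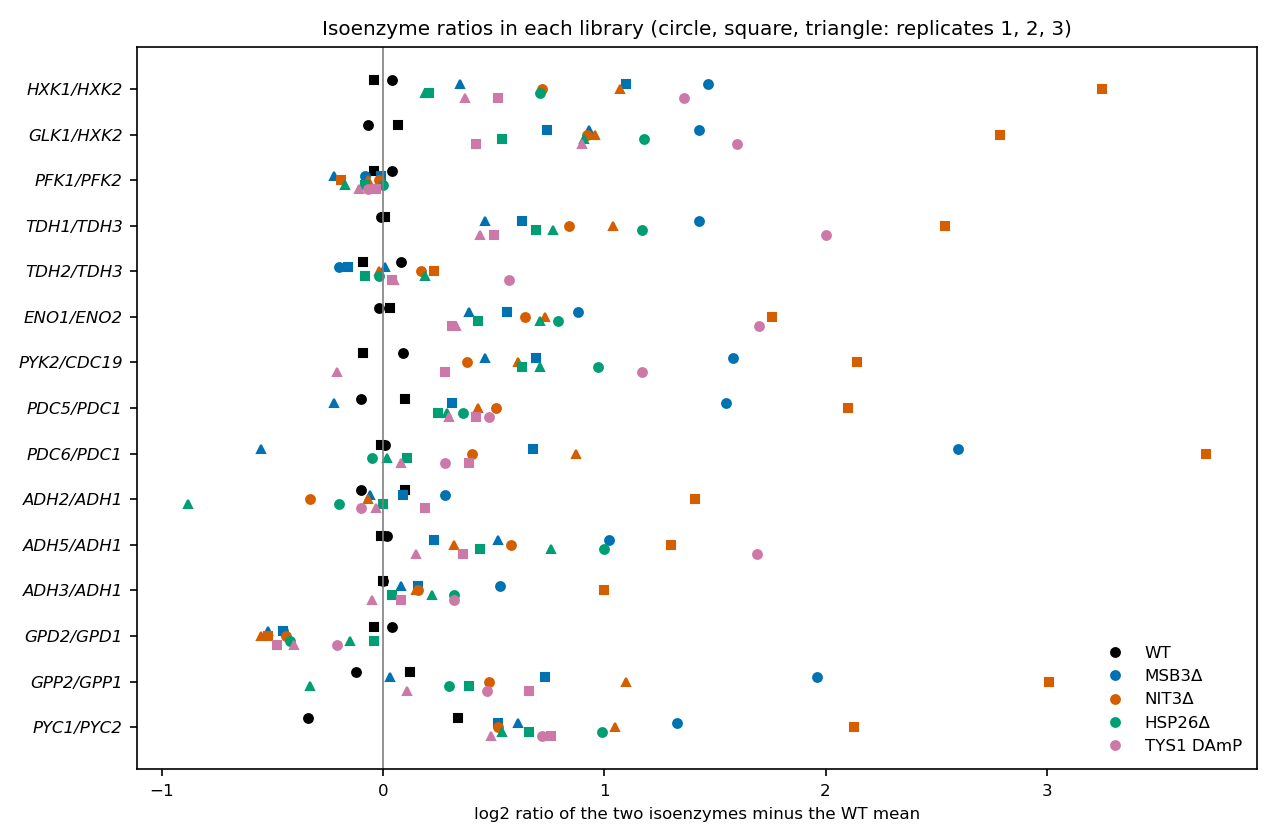
Log2 ratio of 15 isoenzyme pairs in each library minus the mean of the 2 WT libraries, with color for the strain and symbol for the replicate. GLK1/HXK2, HXK1/HXK2, TDH1/TDH3, ENO1/ENO2, ADH5/ADH1 and PYC1/PYC2 lie right of WT in all 12 mutant libraries, farthest in NIT3Δ replicate 2 except for ADH5/ADH1.

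Of 38 other genes of the pathway, listed as regulators, minor isoenzymes and neighbouring steps, 36 could be tested. The numbers called higher were 4, 8, 4 and 3 in MSB3Δ, NIT3Δ, HSP26Δ and TYS1 DAmP, and 0 were called lower. Over all genes tested 3.93%, 4.31%, 5.67% and 3.34% were called higher and 0.559%, 0.506%, 2.41% and 1.64% lower in the same strains. PGM2, the main phosphoglucomutase, which links glucose-6-phosphate to glycogen and trehalose, was called in MSB3Δ (log2 fold change 0.96, SE 0.19), NIT3Δ (1.27, SE 0.46) and HSP26Δ (1.16, SE 0.30). GCY1, a glycerol dehydrogenase, was called in MSB3Δ (1.09, SE 0.26) and HSP26Δ (1.13, SE 0.28). MDH2, the cytosolic malate dehydrogenase of gluconeogenesis, was called in NIT3Δ (1.00, SE 0.33) and HSP26Δ (0.75, SE 0.29).

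Among the regulators, GCR1, the activator of glycolytic genes, was called in NIT3Δ (0.64, SE 0.25) and HSP26Δ (0.60, SE 0.25). ADR1, an activator of ethanol and glycerol use, was called in NIT3Δ (1.25, SE 0.38), and MIG1, the glucose repressor, in MSB3Δ (0.69, SE 0.26). The other calls were FBP26, EMI2, GPM2 and ARO10 in NIT3Δ, GUT2 in MSB3Δ, and GPM2, GUT1 and ERR1 in TYS1 DAmP, with log2 fold changes of 0.61 to 1.52. None had an adjusted p under 0.05 in limma, and fits with a library left out are not given for these genes. Replicate 2 was the highest NIT3Δ library for each gene called in that strain except ARO10. PGM2 was at 297, 753 and 270 FPKM in NIT3Δ replicates 1 to 3 and at 174 and 151 FPKM in WT. GPM2 was at 153, 562 and 222 FPKM in the same NIT3Δ libraries and at 93.2 and 92.2 FPKM in WT. The WT libraries differed widely for ARO10, at 53.5 and 110 FPKM. The glycerol channel, osmosensing kinase and glyoxylate cycle genes in the list (FPS1, HOG1, ICL1 and MLS1) were not called in any strain.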

How the data were processed

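RNA of 14 log-phase cultures was sequenced by the authors, and the deposited table gives FPKM per gene with 2 decimals, with 1 column per library. The submitters' processing notes name HISAT2 2.1.0, Bowtie2, RSEM 1.3.1, DESeq2 1.4.5 and build R64, without their roles. RSEM divides fragments that match several genes by probability.

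Of 5886 genes, 5727 averaged 1 FPKM or more over the 14 libraries (all 32 members among them) and were tested as log2(FPKM + 1) with limma 3.58.1 (trend, robust; R 4.3.3), each mutant with WT only. Fold changes are on that scale, which understates those of low genes. Calls used the study's thresholds (fold above 1.5 or below 0.7, p under 0.05) and, separately, a Benjamini-Hochberg adjusted p under 0.05. The script was tested on simulated data. Ratios and shares were compared with exact two-sided permutation tests over all 91 arrangements of the 14 libraries, or fewer where libraries were left out. A single mutant against WT (3 against 2) cannot reach an exact p below 0.1. P-values set a difference between groups against the spread between these libraries. In limma the spread of each gene is estimated with help from all genes tested.

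Depth was estimated, since counts were not used here: 94.1% of 646 low values were within 0.15 of a whole number of fragments. Alternatives were other pseudocounts, filters, scalings and designs, a replicate block, and leaving out each library. Sequences and positions came from the R64 reference with Biopython 1.88. Members, gene lists and tests were chosen with earlier results of these data known. Named genes were all members by role and the called genes of the pathway list.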

Additional observations from a re-analysis of the deposited data

How the results depend on the processing

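The counts of members called higher in MSB3Δ, NIT3Δ, HSP26Δ and TYS1 DAmP (6, 6, 5 and 6) stayed within 1.5 times under a pseudocount of 0.1, no filter on low values, a filter of 10 FPKM and both scalings. One fit over all 5 groups gave 2 in MSB3Δ and 3 in HSP26Δ. A fold change above 2 or below 0.5 gave 0, 4, 1 and 1. The shares of all genes called under these alternatives, and with 1 library left out, are not given here. Median-ratio scaling gave 1 call lower in HSP26Δ (ADH2). Leaving out 1 library at a time gave 2 to 10, 0 to 7, 1 to 10 and 1 to 5 members called higher, 0 to 1 called lower in HSP26Δ, and 0 to 1, 0 to 4, 0 to 5 and 0 to 4 members with an adjusted p under 0.05. The F test and the isoenzyme pairs had 0 members and 0 pairs past an adjusted p of 0.05 in all settings run. No call of a member changed direction in any setting. The difference in the members' share of the FPKM sum was 0.175 to 0.801 percentage points with 1 library left out, 0.549 without both libraries of low ribosomal share, and turned to -1.08 without ribosomal protein genes in the sum. The cause of these shifts was not tested.

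Same-numbered libraries did not deviate together throughout (correlations of deviations from -0.774 to 0.441 over 26 pairs, median 0.0524, 11 over 0.1), and no mutant had all its same-numbered pairs with WT over 0.1. HSP26Δ and TYS1 DAmP did so with each other (0.207, 0.345 and 0.133). Their direct comparison had 0 members with an adjusted p under 0.05 without the replicate block and 0 with it (0 and 1 at an unadjusted p under 0.05, limma), a fit added after seeing the data. A replicate block gave 10 members called higher in MSB3Δ, 5 of them with an adjusted p under 0.05, and 1 member with an adjusted p under 0.05 in NIT3Δ (PYC1). WT has no replicate 3, so replicate 3 of a mutant had no WT partner in the block. The log2 fold changes were those of the fit without that replicate (HXK1 1.14 in MSB3Δ in both). The shares of all genes called or passing under the block are not given here. With 2 WT libraries and 3 per mutant, differences smaller than the spread of single libraries were not detectable.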
